A study of Mus musculus with 9 samples.

Results

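Ribosomal protein pseudogenes were followed in mature mouse eggs: genes whose symbol joins a ribosomal protein name to a -ps suffix and whose biotype in the deposited tables is a pseudogene. Of 156 such genes among 30153 in the tables, 47 had a mean of at least 1 CPM (a gene's reads per 1000000 reads counted in that library) over the 9 libraries, and these 47 are described. The level itself chose them, so levels are given as a description with no test. Rps15a-ps3 and Rps15a-ps4 reached the threshold only through GFP High (one of the groups described below), and averaged 0.896 and 0.749 CPM over the other libraries. The 3 pseudogenes just above the threshold were Rps19-ps6 at 1.38, Rpl36a-ps3 at 1.37 and Rpl10-ps1 at 1.21 mean CPM. Below it lay, among others, Rps10-ps1 at 0.990 and Rps25-ps1 at 0.891 mean CPM. The other 109 pseudogenes together gave between 16.0 and 25.7 CPM per library.

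A processed pseudogene arises when a messenger RNA is copied back into DNA and inserted elsewhere in the genome, so it has no introns and usually lacks the promoter of its source, called here the parent gene. Ribosomal protein genes, which encode the structural proteins of the small (Rps) and large (Rpl) ribosomal subunits, are a frequent source of such copies. In mouse oocytes some transcribed pseudogenes can pair with the mRNA of their parents and yield endogenous small interfering RNAs, and the egg at ovulation relies on RNA stored during its growth.

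The libraries came from pools of metaphase II (MII) oocytes of Sycp3CreERT2/+; Rosa26nT-nG/+ females, 4 weeks old and of mixed genetic background. Sycp3CreERT2 is a tamoxifen-inducible Cre expressed from the locus of a meiotic gene, and the Rosa26 reporter turns from red to green nuclear fluorescence in cells that Cre has acted on and in their descendants. All 3 groups share this genotype, this age and superovulation with 5 IU PMSG and, 48 h later, 5 IU hCG, with collection 13 h after hCG and removal of cumulus cells by hyaluronidase. Oocytes were picked by hand by their fluorescence into GFP High (15 to 16 oocytes per pool), GFP Low (49 to 57) and RFP (87 to 100), with 3 libraries per group. The labels do not say whether the replicates came from separate animals, so p-values measure only the spread between these libraries.

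Totals ranged from 19381677 to 27746256 counts per library, so 1 CPM rests on about 19.4 reads in the smallest. All 20 oocyte markers (such as Zp3, Gdf9 and Bmp15) were counted in every library, with a summed level between 16062 and 19457 CPM. Of 24 cumulus and granulosa markers, 7, 19 and 11 were at 0 in GFP High 1, 2 and 3. In RFP 2, 2 and 11 were at 0, and 3, 10 and 6 in GFP Low. Nr5a2, Cyp19a1 and Col4a1 exceeded 5 CPM even in GFP High 2, where 19 of the 24 were at 0. Without them, the other 21 markers summed to 68.1, 2.04 and 9.22 CPM in GFP High 1, 2 and 3. The RFP sums were 35.8, 92.9 and 4.86 CPM and those of GFP Low 64.8, 5.66 and 13.7 CPM, so these markers differed widely within each group.

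Most of the 47 pseudogenes were near copies of a whole coding sequence. Identity to the coding sequence of the parent had a median of 99.4% and ran from 87.5% to 100%. It was at least 99% for 35 of the 47, and 8 were identical to the parent over the aligned coding bases with no gap. Rps12-ps4 had no changed base either, but 2 gap bases. Among 108 of the pseudogenes under 1 CPM the median was 97.8%, and 21 reached 99%. For 46 of 47 no ribosomal protein gene matched better than the named parent. Among these, Rps12-ps9 and Rps12-ps4 matched Rps12-ps3 as well as Rps12, and Rpl10-ps6 and Rpl10-ps1 matched Rpl10-ps3 as well as Rpl10 (both -ps3 genes are annotated as protein coding). The exception was Rpl36a-ps3, which matched Rpl36al best. Of the 40 that aligned without a gap, all kept the start codon and 35 had no stop codon in frame before that of the parent. Early stops stood in Rps15a-ps6 at codon 3, Rps15a-ps3 at codon 51, Rps15a-ps4 at codon 107, Rps18-ps3 at codon 144 and Rpl10-ps6 at codon 153.

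How little separates a copy from its source is shown by stretches of the members that the results turn on, from the GENCODE M21 transcripts on build GRCm38. They are in lower case from 5′ to 3′, capitals mark bases that differ from the parent, and positions count from 1 at the A of the parent's start codon. Rpl19 (chr11:98026710-98030492, plus strand) is shown over coding bases 146 to 235 with Rpl19-ps11 (chr8:19493081-19493170, plus strand) and Rpl19-ps10 (chr7:115172165-115172254, plus strand).
Rpl19: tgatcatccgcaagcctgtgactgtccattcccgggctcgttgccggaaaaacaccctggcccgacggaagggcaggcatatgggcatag
Rpl19-ps11: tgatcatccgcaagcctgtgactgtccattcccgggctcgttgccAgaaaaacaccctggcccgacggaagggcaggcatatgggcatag
Rpl19-ps10: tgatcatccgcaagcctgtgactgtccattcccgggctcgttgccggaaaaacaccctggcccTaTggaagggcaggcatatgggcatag
The capital in Rpl19-ps11 is G191A, the single base by which this copy differs from the 591 coding bases of Rpl19.

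The second pair is Rpl14 (chr9:120571444-120574654, plus strand) and the most abundant pseudogene, Rpl14-ps1 (chr7:45325485-45325574, plus strand), over coding bases 524 to 613.
Rpl14: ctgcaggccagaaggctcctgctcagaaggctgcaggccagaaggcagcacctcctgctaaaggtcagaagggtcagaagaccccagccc
Rpl14-ps1: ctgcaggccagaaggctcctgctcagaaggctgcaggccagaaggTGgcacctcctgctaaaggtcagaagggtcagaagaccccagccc
Here the capitals are C569T and A570G, and C420T and A423G lie upstream of this stretch. The alignment of this pair also held 3 gap bases outside the stretch, with 651 bases aligned beside 654 coding bases of Rpl14. Rps10 (chr17:27630418-27636669, minus strand) and Rps10-ps2 (chr16:20822160-20822249, minus strand) are shown over coding bases 392 to 481 because the copy was counted far above its parent.
Rps10: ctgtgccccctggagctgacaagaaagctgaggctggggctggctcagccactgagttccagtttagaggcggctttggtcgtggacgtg
Rps10-ps2: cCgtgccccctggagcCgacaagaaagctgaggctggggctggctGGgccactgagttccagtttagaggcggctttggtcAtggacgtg
The changes are T393C, T408C, C437G, A438G and G473A, all the differences found between this pair. Rpl31 (chr1:39367842-39371911, plus strand) and Rpl31-ps8 (chr15:90764597-90764656, minus strand) follow over coding bases 1 to 60.
Rpl31: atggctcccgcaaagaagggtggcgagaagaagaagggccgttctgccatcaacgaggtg
Rpl31-ps8: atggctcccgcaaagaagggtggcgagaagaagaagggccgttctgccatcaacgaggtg
No base differs here or anywhere else in the 378 coding bases of this pair.

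Near identity limits what a count can say about one copy. Each 100-base window of a pseudogene was searched on both strands in the annotated transcripts of genes at other places. Genes that overlap the pseudogene were not searched. The share of windows found nowhere else had a median of 27.0%. That share was under 50% for 34 pseudogenes, 0 for 11 and 100% for 5. The 11 with no window of their own were Rpl17-ps5, Rpl36a-ps2, Rpl7a-ps11, Rpl31-ps8, Rpl28-ps1, Rps6-ps4, Rps16-ps2, Rpl38-ps2, Rps13-ps2, Rpl35a-ps2 and Rpl10-ps1. Those distinct in all of their 100-base windows included Rpl19-ps3, Rpl19-ps10, Rpl22-ps1 and Rpl39-ps. At 50 bases Rpl19-ps3 shared a window with 1 other gene, and the unique share of the other three was 78.3%, 75.7% and 49.0% in that order. The coding sequences of the 32 parents had a median of 21.9% unique windows, with 27 under 50% and 10 at none. The whole parent mRNAs had a median of 49.0%, with 16 under 50% and 0 without a unique window. These mRNAs include untranslated ends, except that used for Rps10, whose 498 bases are all coding. How the counting treated reads that match several places is not given in the sources used here, so a count of a copy that shares windows is uncertain between the copy, its parent and other copies.

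The 47 genes, 42 annotated as processed and 5 as transcribed processed pseudogenes, comprised 29 Rpl and 18 Rps copies of 32 parents. They lay on 17 chromosomes, with 8 on X, 6 on 7 and 4 each on 3 and 8. In the annotation 23 stood between genes, 21 in an intron of another gene and 3 on an exon of one. Of the intronic ones 9 ran only in the direction of the host gene and 11 only against it. Rpl14-ps1, for example, ran against Trpm4, which had a mean of 1.12 CPM, and Rps26-ps1 ran against Wwp2 at 76.1 CPM. In 13 of the 21 the pseudogene had more reads than the gene around it. The 3 on an exon were Rpl19-ps11 and Rpl19-ps10, each sharing 80 bases with a small gene that had no counts, and Rps12-ps4, which overlapped 183 bases of Nphs1 on the opposite strand (0.0197 CPM).

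Levels ran from 1.21 to 119 mean CPM. The median of the 47 was 4.95 mean CPM, with 19 at 10 or more, 16 between 2 and 10 and 12 between 1 and 2. Together they took 0.0774% of all counts, and the 5 most abundant supplied 387 of their 774 mean CPM. The share of the 10 most abundant was 71.7%, and 46 of the 47 were counted in every library. The exception was Rps19-ps6, with no count in GFP High 2, which allows up to 3 counts there, for counting error only.

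**Figure D1:**
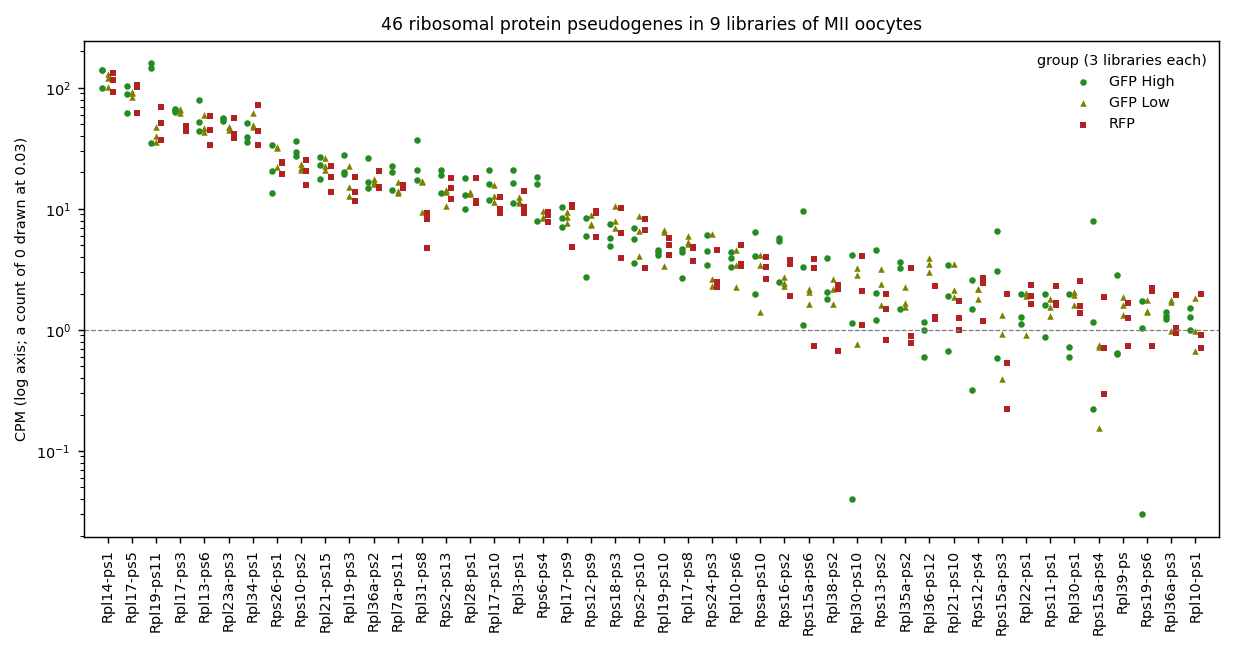
CPM of 46 of the 47 pseudogenes in each library (log axis), ordered by mean CPM, with 3 points per group and a dashed line at 1 CPM. The genes run from Rpl14-ps1 at a mean of 119 CPM to Rpl10-ps1 at 1.21 CPM, and Rpl19-ps11, Rpl31-ps8 and Rps15a-ps4 spread widely between libraries.

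Among the large-subunit copies, Rpl14-ps1 was the most abundant (ENSMUSG00000046721, chr7:45324965-45325617, plus strand). The 3 RFP libraries had 115, 132 and 92.1 CPM, those of GFP Low 121, 101 and 129 CPM, and GFP High 1, 2 and 3 had 140.0, 141 and 101 CPM. All 3 groups overlapped. Its parent Rpl14 had a lower mean of 76.2 CPM. Per kilobase of transcript the copy stood at 183 CPM against 75.5 for the mRNA of Rpl14.

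Rpl17 had the largest set of copies, 5 of the 47, which together took 22.4% of the summed CPM of all 47. Rpl17-ps5 led at a mean of 87.9 CPM and had no 100-base window of its own, sharing windows with 14 other genes. It was followed by Rpl17-ps3 at 59.0, Rpl17-ps10 at 13.4, Rpl17-ps9 at 8.61 and Rpl17-ps8 at 4.60 mean CPM. The 5 copies summed to 173 CPM, while the parent Rpl17 had 40.3. None of the coding windows of Rpl17 was unique.

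Rpl19 had 3 copies, and they differed in both level and distinctness. Rpl19-ps11, with 1 base changed and 20.3% unique windows, had a mean of 69.2 CPM. Rpl19-ps3 and Rpl19-ps10 shared no 100-base window with another gene, at 92.2% and 93.3% identity, and had 18.0 and 4.95 mean CPM. Of the 1758 bases of the longest Rpl19-ps3 transcript, only 590 aligned to Rpl19. Its 3 annotated transcripts span chr14:49103507-49122712, so its reads need not come from the copied part. Rpl19 itself was the most abundant parent, at 293 CPM.

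Of the other abundant large-subunit copies, Rpl13-ps6 had a mean of 51.3 CPM, Rpl23a-ps3 49.1, Rpl34-ps1 48.4 and Rpl21-ps15 21.4. Rpl23a-ps3 and Rpl23a were almost level per kilobase, at 105 and 104 CPM. Rpl34-ps1 exceeded Rpl34 in reads, since the parent had only 11.6 CPM. The leading small-subunit copies were lower, with Rps26-ps1 at 24.7, Rps10-ps2 at 24.6 and Rps2-ps13 at 15.3 mean CPM.

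The transcript of 39 of the 47 copies was within 10 bases of the coding length of the parent, and most parent mRNAs were longer. Levels were therefore compared with the parent per kilobase of 1 transcript of each gene. On this scale the median pseudogene stood at 41.5% of its parent, 15 of 47 exceeded it and 11 were under 10% of it. By reads alone 12 exceeded the parent and the median was 29.2%. With the authors' gene lengths, which join all annotated exons of the parent, 24 exceeded it and the median was 132%, so the share above the parent depends on the length used.

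The copies far above their parents belonged to parents that were barely counted. Rps10-ps2 had 24.6 mean CPM, while Rps10 had 0 in GFP High 1 and 2 and at most 1.31 CPM in any library. Rps2-ps13 had 15.3 CPM against 0.996 for Rps2, and Rpl21-ps15 had 21.4 against 2.79 for Rpl21. Of the 15 copies above their parent per kilobase, 10 had a parent under 10 CPM. At the other end, Rpl22-ps1 stood at 1.85% of Rpl22 and Rpl19-ps3 at 2.63% of Rpl19 per kilobase, and neither copy shared a 100-base window with another gene. The value of Rpl19-ps3 is taken over all 1758 bases of its transcript, of which 590 aligned to Rpl19.

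Level and distinctness were set side by side across the pseudogenes. The 34 with under 50% unique windows had a median of 11.8 CPM and included 14 of the 15 above their parent per kilobase. The 13 with 50% or more had a median of 1.74 CPM and a highest value of 18.0. Across the 47 genes, Spearman's rho of the mean level was 0.33 with identity to the parent, -0.32 with the share of unique windows and 0.22 with the level of the parent, values that share the same 9 libraries and the same counting of repeated sequence.

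**Figure D2:**
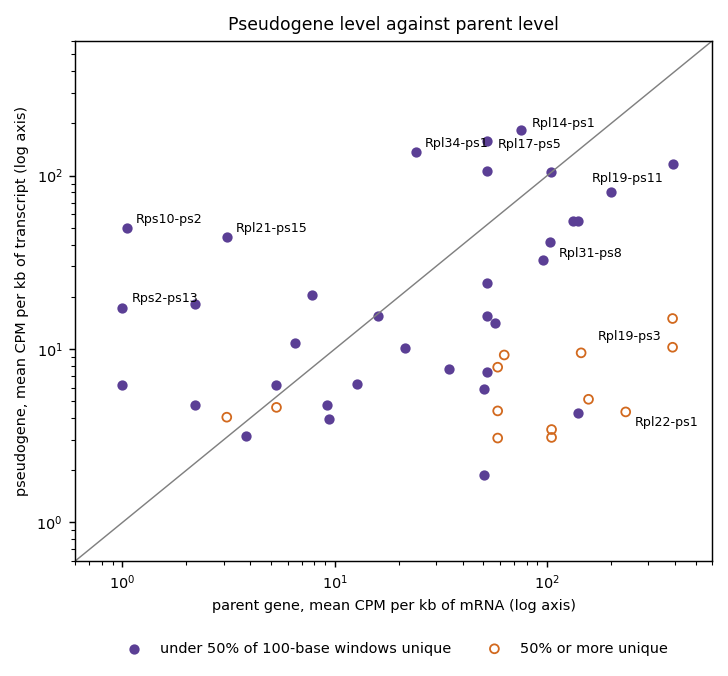
Mean CPM per kilobase of each pseudogene against that of its parent mRNA (both axes log), with the line of equal levels. Filled points have under 50% unique 100-base windows and open points 50% or more. Rps10-ps2, Rps2-ps13 and Rpl21-ps15 lie far above the line, and Rpl22-ps1 and Rpl19-ps3 far below it.

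The groups were then compared. Against RFP this asks whether these transcripts differ between eggs that the reporter marks as having or lacking Cre activity. The remaining comparison sets the GFP groups against each other. Each pair of groups was tested over all genes with edgeR's quasi-likelihood test, and a gene was called at a Benjamini-Hochberg adjusted p under 0.05. The comparisons share libraries, RFP standing in both comparisons with GFP groups, so they are not independent of each other. All 47 pseudogenes passed the filter on low counts in each comparison. In bulk pools, fewer cells of a type and less RNA per cell cannot be told apart. The number of oocytes per pool also differs with the group, so a difference between groups cannot be told apart from one of pool size.

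In GFP High against RFP, no pseudogene was called among 2 calls in 14829 genes (0.0135% of genes). The smallest adjusted p of a pseudogene was 0.997. At an unadjusted p under 0.05 there were 5, all higher in GFP High, namely Rpl31-ps8, Rpl17-ps3, Rps10-ps2, Rpl19-ps3 and Rpl19-ps11. That is 10.6% of the 47, beside 4.09% of all genes tested and 2.27% higher at that p. The fitted log2 fold change was above 0 for 32 of 47, with a median of 0.27, beside a median of -0.01 and 49.3% above 0 over all genes. Without Rps15a-ps3 and Rps15a-ps4 there were 30 of 45 above 0, with a median of 0.20. Single libraries moved the median of the 47 to 0.08 without GFP High 2, 0.13 without GFP High 1, 0.13 without RFP 3 and 0.41 without RFP 2, with 27 to 35 above 0 in those fits, and the number at an unadjusted p under 0.05 ran from 2 to 9.

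Without overlap between the 3 libraries of each group, 4 were higher in GFP High (Rpl17-ps3, Rpl19-ps3, Rpl31-ps8 and Rps10-ps2) and 1 lower (Rpl36-ps12). Over all genes 4.75% were higher and 7.28% lower in this way, 12.0% in all. The pseudogenes with the smallest p among those lower in GFP High were Rps12-ps9, Rpl36-ps12 and Rpl34-ps1, at log2 fold changes of -0.52 ± 0.44, -0.79 ± 0.87 and -0.23 ± 0.26 (SE).

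In GFP Low against RFP no pseudogene was called either, among 3 calls in 15199 genes (0.0197%), and the smallest adjusted p was 0.919. At an unadjusted p under 0.05 stood 3, all higher in GFP Low (Rpl17-ps3, Rpl31-ps8 and Rpl36-ps12), or 6.38% of the 47 beside 2.62% of all genes and 1.28% higher at that p. There were 29 of 47 above 0 (61.7%, beside 48.9% of all genes), with a median log2 fold change of 0.06, against -0.00 over all genes. This direction rested on RFP 3: without it 17 were above and 30 below 0, with a median of -0.07. The median was 0.18 with 36 above 0 without RFP 2, 0.04 without GFP Low 1 and 0.01 without GFP Low 3, and the number at an unadjusted p under 0.05 ran from 3 to 7 over these fits. Groups did not overlap for 5, all higher in GFP Low: Rpl17-ps3, Rpl17-ps8, Rpl21-ps10, Rpl31-ps8 and Rpl36-ps12. Over all genes the shares were 3.38% higher, 4.34% lower and 7.71% in all.

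In GFP High against GFP Low, edgeR called 0 of 14785 genes (0.0%), with 558 at an unadjusted p under 0.05 (3.77%), and DESeq2 called 4 genes (0.0147%) and no pseudogene. Of the pseudogenes 4 were at an unadjusted p under 0.05, with Rpl19-ps11, Rps10-ps2 and Rpl31-ps8 higher in GFP High and Rpl36-ps12 lower. That is 8.51% of the 47, beside the 3.77% of all genes. The log2 fold change was above 0 for 28 (59.6%) and below for 19, with a median of 0.12. Over all genes 49.4% were above 0, with a median of -0.005. The median of the 47 was 0.03 without GFP High 2, 0.24 without GFP High 3, 0.06 without GFP Low 2 and 0.07 without GFP Low 3. The number at an unadjusted p under 0.05 ran from 1 to 9 over the fits without 1 library. Without Rps15a-ps3 and Rps15a-ps4 there were 26 above 0 and 19 below, with a median of 0.11. Groups did not overlap for 3 higher in GFP High (Rpl23a-ps3, Rpl31-ps8 and Rps10-ps2) and 2 lower (Rpl17-ps8 and Rpl36-ps12), beside 4.78% and 6.71% of all genes, 11.5% in all.

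**Figure D3:**
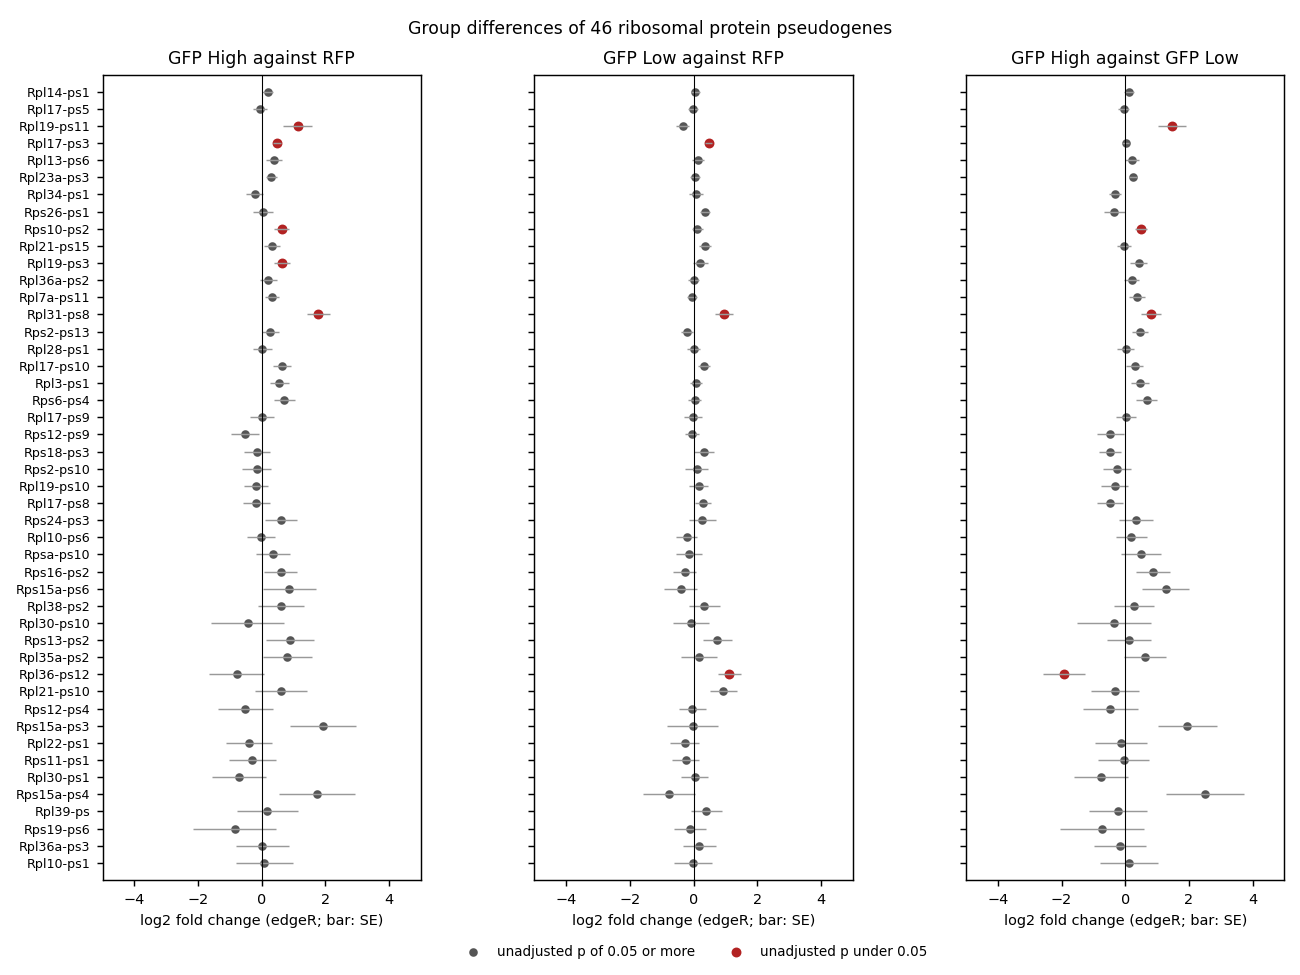
Log2 fold change with its standard error for 46 of the 47 pseudogenes in the 3 comparisons, from edgeR, in order of mean CPM. Red points have an unadjusted p under 0.05: 5 in GFP High against RFP, 4 in GFP High against GFP Low and 3 in GFP Low against RFP, and no pseudogene passed the adjusted threshold.

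Rpl31-ps8, the copy with the coding sequence of Rpl31 unchanged, stood in order across the groups (ENSMUSG00000067870, chr15:90764279-90764656, minus strand). GFP High 1, 2 and 3 had 17.3, 21.1 and 36.9 CPM. GFP Low followed with 9.49, 16.5 and 16.9 CPM, and RFP came last with 8.22, 9.23 and 4.75 CPM. No library of a group overlapped the next group, but both boundaries were narrow. GFP High 1 and GFP Low 3 were separated by less than 1 CPM, and so were GFP Low 1 and RFP 2. The order of the groups is also the reverse of their order by oocytes per pool, and the part of pool size was not tested. The log2 fold change of GFP High against RFP was 1.77 ± 0.35 (SE), with an adjusted p of 0.997 by edgeR.

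DESeq2 on the same counts called Rpl31-ps8 in GFP High against RFP, with an adjusted p of 0.00234, as 1 of 12 genes (0.0439%). Over all alternative settings run, its adjusted p ran from 1.01e-05 with no filter on low counts to 1.00. It stands among the 12 calls of the authors' deposited table as well, at an adjusted p of 0.00235. For GFP Low against RFP the log2 fold change was 0.97 ± 0.28 (SE), with an adjusted p of 1.00 by edgeR and 0.624 by DESeq2.

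The parent ran the other way within GFP High. Rpl31 had 63.2, 40.0 and 30.1 CPM in the 3 GFP High libraries. RFP 1, 2 and 3 had 50.1, 73.5 and 52.3 CPM and the GFP Low libraries 53.6, 41.6 and 46.3 CPM. GFP High 3, highest for the copy, was lowest for the parent, and the copy reached 122% of the parent's reads there but 9.09% to 16.4% in RFP. Added together, Rpl31 and Rpl31-ps8 gave 66.0 ± 14.5 CPM for RFP, 61.5 ± 2.88 for GFP Low and 69.5 ± 9.94 for GFP High (SD, n = 3 each). On this sum, which was chosen after the values were seen, all groups overlapped. The sum carries the spread of the parent and leaves out other genes that share windows with the copy. It cannot show whether the copy differs.

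Rpl17-ps3 had the lowest spread relative to its mean (SD over mean) within each group among the 10 most abundant copies (ENSMUSG00000113948, chr12:67510756-67511311, plus strand, between genes). RFP 1, 2 and 3 had 47.8, 48.5 and 44.3 CPM. The GFP High libraries had 65.2, 63.5 and 67.1 CPM and the GFP Low libraries 62.4, 66.6 and 65.7 CPM. Every GFP library lay above every RFP library, and the GFP groups overlapped. The log2 fold change was 0.49 ± 0.13 for GFP High and 0.48 ± 0.10 for GFP Low against RFP (SE), with adjusted p of 0.997 and 0.919 by edgeR.

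DESeq2 called Rpl17-ps3 in GFP Low against RFP (adjusted p = 0.0258, among 10 genes or 0.0341%) and not in GFP High against RFP (adjusted p = 0.0992). Over all settings its adjusted p ran from 0.0258 and 0.0992 up to 1.00 in these comparisons. The authors' deposited table gives adjusted p of 0.0255 and 0.0997 for these comparisons. Against Rpl17 this copy differs by G81T and G125A. The parent varied more than the copy, with a range of 30.8 to 73.7 CPM over RFP, 21.4 to 57.6 over GFP Low and 22.4 to 51.3 over GFP High. Added to the parent, the copy gave 94.2 ± 24.4, 100.0 ± 20.7 and 104 ± 14.3 CPM in that order of groups (SD, n = 3), with overlapping groups. The SDs of the copy alone were 2.25, 2.24 and 1.79 CPM. The sum thus carries the spread of the parent and leaves out the other Rpl17 copies, so it cannot show whether the copy differs.

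Rpl19-ps11 was the most uneven of the 10 most abundant copies (ENSMUSG00000081094, chr8:19492936-19493526, plus strand). GFP High 1 and 2 had 147 and 160.0 CPM, while GFP High 3 had 35.4. RFP had 69.5, 51.4 and 37.0 CPM and GFP Low 35.8, 47.6 and 40.2 CPM. The high values were thus those of 2 libraries of GFP High, and GFP High 3 lay below every GFP Low and RFP library. Its log2 fold change of GFP High against GFP Low was 1.47 ± 0.43 (SE), with an adjusted p of 0.998 by edgeR. Without GFP High 3 it was 1.90 with an adjusted p of 0.0196, the only gene called in that fit. Over all settings its adjusted p ran from 7.84e-19 with no filter on low counts to 1.00.

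Within GFP High the parent again ran against the copy. Rpl19 had 231 and 234 CPM in GFP High 1 and 2, where the copy was high, and 321 in GFP High 3. RFP 1, 2 and 3 had 277, 325 and 260.2 CPM and the GFP Low libraries 312, 326 and 348 CPM. The copy amounted to 63.6% and 68.4% of the parent's reads in GFP High 1 and 2 and to between 11.03% and 25.1% in the other libraries. The sum of Rpl19 and Rpl19-ps11 was 377, 393 and 356 CPM in GFP High 1, 2 and 3. It was 347, 377 and 297 CPM in the RFP libraries and 348, 374 and 388 CPM in those of GFP Low. Over the 9 libraries the coefficient of variation (SD over mean) was 70.6% for the copy, 14.8% for the parent and 8.15% for the sum.

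Rps10-ps2, a copy of the small-subunit gene Rps10, had 29.7, 36.7 and 27.4 CPM in the 3 GFP High libraries. RFP had 20.5, 25.5 and 15.7 CPM and GFP Low 21.1, 21.7 and 23.5 CPM. GFP High stood above the other groups in every library. Its log2 fold change was 0.62 ± 0.23 against RFP and 0.51 ± 0.19 against GFP Low (SE), with adjusted p of 0.997 and 0.998 by edgeR. With Rps10 near 0, adding the parent left the order as it was, at 31.7 ± 4.36 CPM for GFP High, 22.8 ± 1.502 for GFP Low and 20.96 ± 4.72 for RFP (SD, n = 3).

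Rpl36-ps12 had the reverse order among the GFP groups, at a low level and with 74.9% unique windows. GFP Low 1, 2 and 3 had 3.92, 3.53 and 2.99 CPM. GFP High had 0.991, 0.601 and 1.17 CPM and RFP 1.29, 2.30 and 1.23 CPM. These values rest on 15 to 27 reads per library in GFP High and 76 to 93 in GFP Low. GFP Low lay above every other library. The log2 fold change was -1.91 ± 0.66 for GFP High against GFP Low and 1.13 ± 0.37 for GFP Low against RFP (SE), with adjusted p of 0.998 and 1.00 by edgeR. Rpl36 itself overlapped in all groups, at 52.8 ± 24.6 CPM for RFP, 59.4 ± 9.84 for GFP Low and 67.7 ± 12.7 for GFP High (SD, n = 3).

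**Figure D4:**
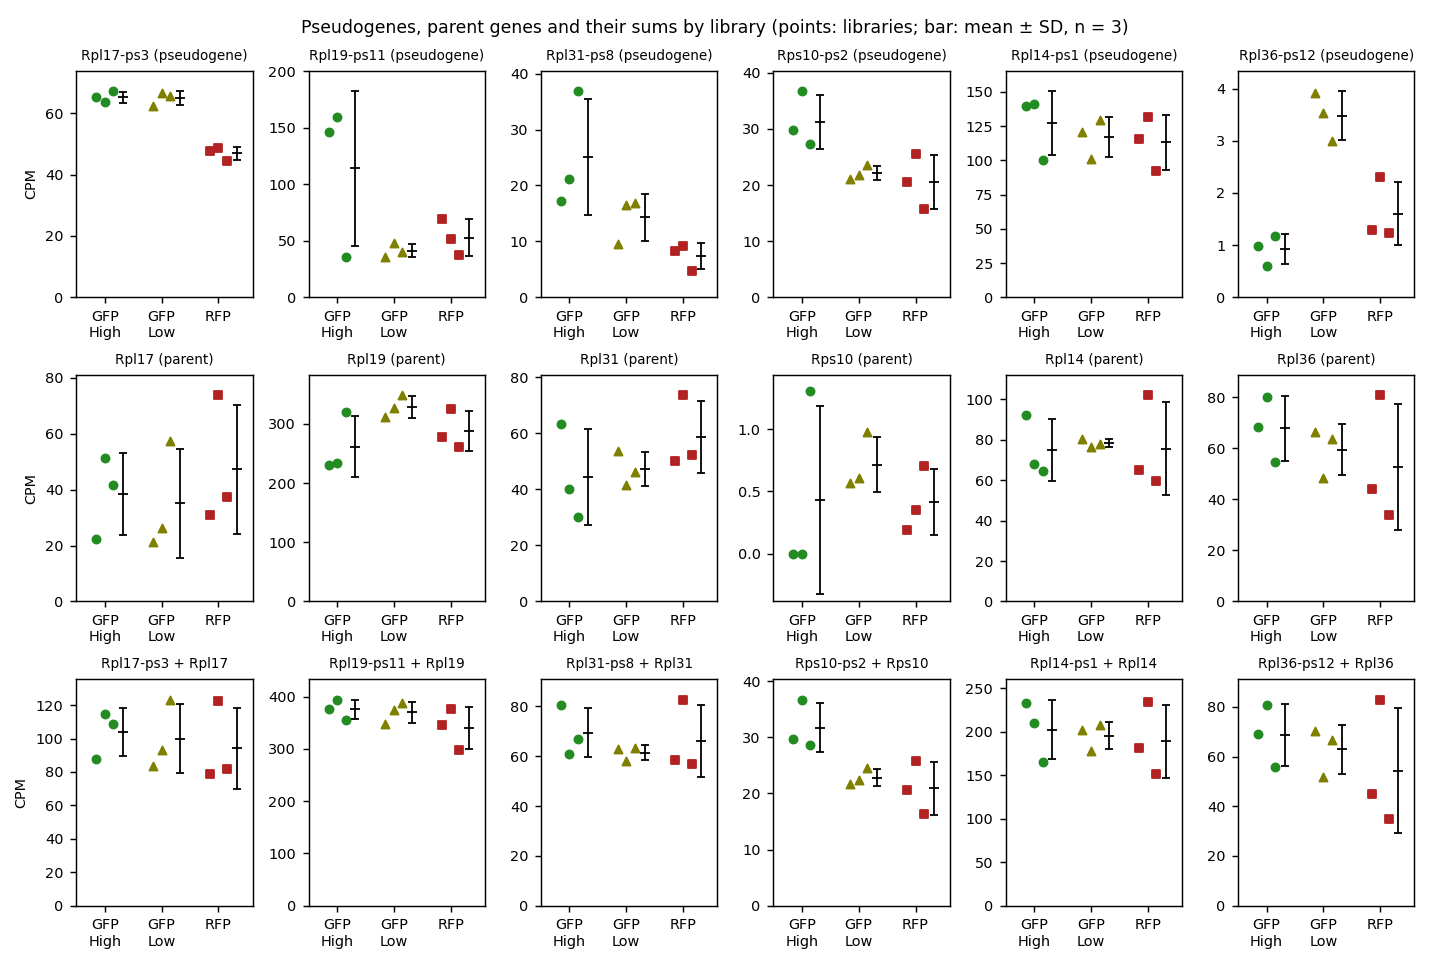
CPM of 6 pseudogenes (top), their parents (middle) and the sum of each pair (bottom) by library, with the mean ± SD of 3 libraries beside the points. Rpl19-ps11 is high in 2 GFP High libraries in which Rpl19 is low. The sums of the Rpl19, Rpl31 and Rpl17-ps3 pairs overlap between groups, and those of Rpl31 and Rpl17-ps3 carry the larger spread of the parent. Rps10 had a mean of only 0.522 CPM, so the sum with Rps10-ps2 repeats the copy.

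A single library carried the copies of Rps15a, a small-subunit gene. Rps15a-ps6, Rps15a-ps3 and Rps15a-ps4 had 9.70, 6.62 and 7.98 CPM in GFP High 2, and each was higher there than in any other library. The 3 copies summed to 24.3 CPM in GFP High 2, 1.91 and 7.51 in GFP High 1 and 3, and between 1.26 and 7.05 in GFP Low and RFP. Rps15a had 15.8 CPM in GFP High 2, below the 26.2 to 50.5 of the other libraries. Parent and copies together gave 40.1 CPM in GFP High 2, within the range of 33.2 to 54.1 of the other 8 libraries. Rps15a-ps6, Rps15a-ps3 and Rps15a-ps4 had 84.0%, 85.8% and 86.1% unique 100-base windows. The share was 71.5% for the mRNA of Rps15a and 47.6% for its coding sequence. Rps15a-ps4 came above 1 mean CPM through this library, with 199 reads in GFP High 2 and 3 to 49 in each of the others.

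Rpl13-ps6 and Rpl13 also parted in GFP High 2. The copy had 78.7 CPM there against 33.6 to 60.01 in the other libraries, and Rpl13 had 44.8 CPM against 145 to 198. Their sum of 123 CPM in that library stayed below the 178 to 250.0 of the others.

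Summed over all 47, the pseudogenes gave 941, 992 and 693 CPM in GFP High 1, 2 and 3. The RFP libraries had 747, 796 and 556 CPM and the GFP Low libraries 740, 719 and 779 CPM. The means were 876 ± 160.0 CPM for GFP High, 746 ± 30.6 for GFP Low and 700 ± 127 for RFP (SD, n = 3), and GFP High 3 lay below all of GFP Low. Without Rpl19-ps11 the means were 762 ± 91.9, 705 ± 33.8 and 647 ± 116 CPM, so this copy supplied the largest part of the gap between GFP High and GFP Low. The 32 parents summed to 1642 ± 172, 1691 ± 106 and 1661 ± 356 CPM.

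GFP High 2 was the highest library for 17 of the 47 copies and RFP 3 the lowest for 18. GFP High 2 was also the library with the lowest sum of cumulus markers (2.04 CPM), and RFP 2, with the highest (92.9 CPM), had the highest sum of parents, 2065 CPM. RFP 3, which had the lowest pseudogene sum, also had few cumulus reads (4.86 CPM), so low marker sums went with both the highest and the lowest pseudogene sum. The part of cumulus RNA in these levels was not tested. Within groups the median coefficient of variation of the 47 was 31.6% for GFP High, 27.6% for RFP and 16.4% for GFP Low, beside 23.9%, 13.0% and 12.7% for all 12806 genes at 1 CPM or more.

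**Figure D5:**
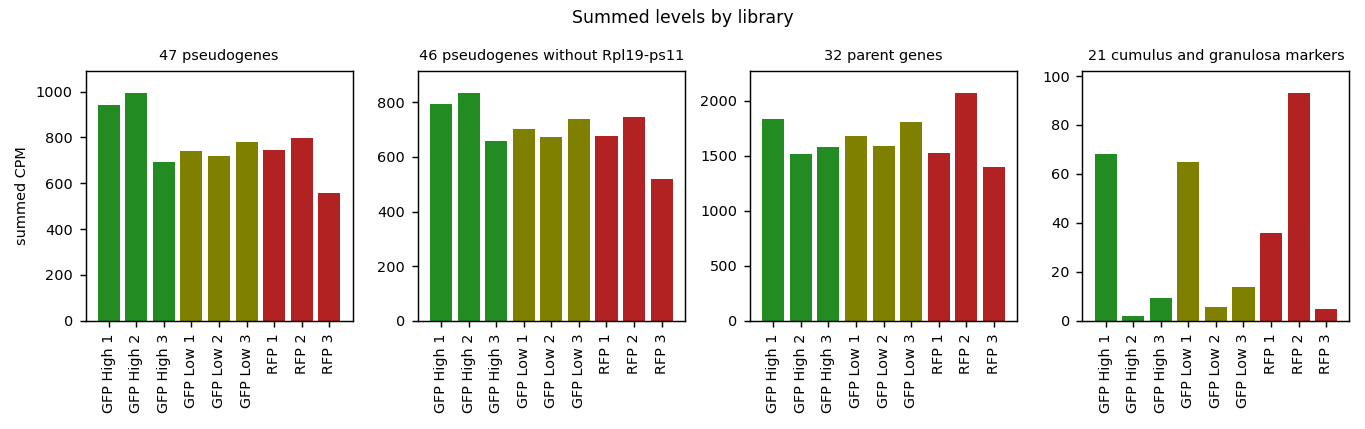
Summed CPM by library for the 47 pseudogenes, for 46 without Rpl19-ps11, for the 32 parents and for 21 cumulus and granulosa markers, with bars from 0 coloured by group. The pseudogene sum runs from 556 CPM in RFP 3 to 992 CPM in GFP High 2, and the marker sum from 2.04 to 92.9 CPM.

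The protein-coding ribosomal protein genes were read in the same fits. None of the 32 parents was called in any comparison by edgeR at its default filter, with 31 tested in GFP High against RFP and 32 in the others. With no filter on low counts, 2 were called in GFP Low against RFP, Rpl7a and Rps13, among 34 calls in 29374 genes. The median log2 fold change of the parents at the default filter was -0.02 in GFP High against RFP, 0.06 in GFP High against GFP Low and 0.02 in GFP Low against RFP. Leaving out 1 library moved these medians to either side of 0 in each comparison, from -0.15 to 0.20, -0.09 to 0.09 and -0.10 to 0.18 in that order. Of the 79 listed cytosolic ribosomal protein genes, 76 were tested in GFP High against RFP and 77 in each other comparison, and the only one called was Rps28, lower in GFP Low than in RFP. Rps28 had 13.1 ± 5.68 CPM in RFP and 2.45 ± 0.0950 CPM in GFP Low (SD, n = 3), while GFP High 1, 2 and 3 had 20.8, 2.41 and 1.62 CPM. The log2 fold change was -2.41 ± 0.31 (SE), with an adjusted p of 0.0214 by edgeR. DESeq2 called it as well (adjusted p = 1.418e-09), but limma-voom (0.304), bias-adjusted deviances in edgeR (0.0657) and 9 libraries in one edgeR fit (1.00) did not. The call was also lost in edgeR without any 1 library of GFP Low (0.174 to 0.189), without RFP 2 (0.0815) and without RFP 3 (0.0518).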

How the data were processed

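Poly-A RNA of pooled MII oocytes was sequenced as paired ends in 3 libraries each of GFP High, GFP Low and RFP. Per the submitters' processing notes the tools were fastp, HISAT2 2.0.5, featureCounts 1.5.0-p3 and DESeq2 1.20.0 with build mm10; the notes give no counting options. The authors deposited 3 tables, 1 per pair of groups, with raw read counts per gene, the input to all tests. The deposited tables also hold a normalised signal (count over a size factor) and FPKM values, not tested here. The authors' deposited log2 fold changes and p-values are quoted only where their table is named. The tables were joined into 30153 genes by 9 libraries, and 178 genes missing from a table were set to 0 in its libraries. Gene places and transcripts came from GENCODE M21 (GRCm38, the same assembly as mm10), and all 47 pseudogenes had identical coordinates there.

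Each pair of groups was fitted on its 6 libraries with edgeR 4.0.16 (R 4.3.3): filterByExpr, TMM and the quasi-likelihood test at its defaults, with Benjamini-Hochberg adjustment over all genes tested. The script was tested on simulated data with the same spread for every gene. That does not show how small a difference could be called here. DESeq2 1.42.0, limma-voom 3.58.1, another scaling, other filters, 9 libraries in one fit, a replicate block and leaving out each library were alternatives. The parent is the protein-coding gene named before -ps. Copies were aligned to its principal coding sequence with Biopython (local; match 1, mismatch -1, gap opening -3, extension -1). Windows of 100 bases were searched in annotated transcripts only, so unannotated copies were missed.

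The members, lists and tests were chosen with earlier results of these data known. Named were the 10 most abundant members, those called by edgeR or DESeq2, the 3 with the smallest p in each direction of each comparison, the 3 on either side of the threshold, Rpl19-ps11, the extremes relative to the parent and those on another gene's exon. Per kilobase levels use 1 mRNA per gene. Rps15a and Rpl13 copies, Rps28, the values without the pair of Rps15a copies that reached the threshold through 1 group, Rpl17-ps8, Rpl21-ps10 and the sums of copy and parent were added after their values were seen. Replicates differed by more than sampling noise (chi-square per degree of freedom 13.8 to 57.6) and none were merged. Rpl24 is not analysed here, and some values of named genes are not reported here.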

Additional observations from a re-analysis of the deposited data

How the results depend on the processing

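The 19 named pseudogene comparisons gave 150 fold changes in refits that used other tools, scalings, filters or designs. All 150 kept their sign, and 6 of those passed the threshold. Each refit gave several of these values from the same counts, so they are not separate checks. Of 114 such values from fits without 1 library, 111 matched the result with all libraries, 1 passed the threshold and 2 changed sign. Those 2 were Rpl34-ps1 in GFP High against RFP without RFP replicate 2 (log2 0.13; -0.45 to 0.13 over the 6 fits) and Rps15a-ps4 in GFP Low against RFP without RFP replicate 1 (log2 0.15; -1.20 to 0.15).

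Calls over all genes in GFP High against RFP, 2 with edgeR, were 12 with DESeq2, 1 with limma-voom and 16 with no filter on low counts, and 0 to 2 without 1 library (0 in each fit that lacked GFP High 1 or 3 or RFP 2 or 3). In GFP Low against RFP, 3 became 10, 1 and 34 in the same order, and 2 to 3 without 1 library. In GFP High against GFP Low, 0 became 4 with DESeq2, 16 with no filter and 0 to 1 without 1 library. Pseudogenes among them, 0 in each comparison with edgeR at its default filter on all 6 libraries, were 1 and 2 in GFP High against RFP with DESeq2 (Rpl31-ps8) and with no filter (Rpl19-ps11 and Rpl31-ps8). In GFP Low against RFP they were 1 with DESeq2 (Rpl17-ps3) and 1 with no filter (Rpl31-ps8). In GFP High against GFP Low, Rpl19-ps11 was the 1 called with no filter and the 1 called without GFP High 3. The cause was not tested.

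With the replicate number as a block, the calls were 4, 3 and 0 in the same order of comparisons, with 0 pseudogenes in each. Same-numbered libraries did not deviate together, with correlations of deviations between -0.103 and 0.125, so the numbers are not taken as a pairing. The summed CPM of the pseudogenes in GFP Low, 746, was 697 without those on another gene's exon and 705 without Rpl19-ps11, an alternative chosen after seeing the data. Leaving out 1 library gave sums of 817 to 967 in GFP High, 730 to 760 in GFP Low and 651 to 771 in RFP. A threshold of 5 or 10 mean CPM in place of 1 would have kept 23 or 19 pseudogenes. At 1 CPM a pseudogene rests on about 19.4 reads in the smallest library, which limits what the lowest members can show.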

Other observations

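A further 5 genes carry such a symbol but are annotated as protein coding, and were left out by the rule. Rpl10-ps3 had a mean of 10.9 CPM over the 9 libraries, Rps12-ps3 5.29, Rpl27-ps3 1.72, Rpl9-ps6 0.498 and Rpl36a-ps1 0.237. The means of Rpl10-ps3 were 10.7 ± 1.89 CPM for RFP, 10.6 ± 2.68 for GFP Low and 11.4 ± 3.51 for GFP High (SD, n = 3), and those of Rps12-ps3 5.97 ± 1.51, 5.48 ± 0.915 and 4.40 ± 1.41 CPM in that order. Their groups overlapped. The 704 other pseudogenes at 1 CPM or more summed to between 12914 and 16254 CPM per library, so the 47 ribosomal protein copies were a small part of the pseudogene counts of these eggs.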
